A study of Oryzias latipes with 2 samples.

Results

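The cells described here are 150 lymphocytes from the skin and scales of adult medaka (Oryzias latipes), chosen by the levels of 8 genes in the same cells, as those in which a set led by il2rb stood at or above a set led by CCR9. They were found among 379 lymphocytes, 352 in run 1 and 27 in run 2, out of the 5316 barcodes of both runs. A barcode counted as a lymphocyte with at least 500 UMIs (unique molecular identifiers, 1 per captured transcript molecule), at least 300 genes and at least 2 UMIs of CD3D, lck and zap70 together. It also had at most 1 UMI of gata3 and mpl together, no UMI of epcam, and at most 1 UMI each of scarb1 and KIRREL3. Each lymphocyte was then scored by its mean z-score over set A (CCR9, il12rb2, il10ra and ptpn11b) and over set B (il2rb and 3 features that carry only an identifier, ENSORLG00000029584, ENSORLG00000026946 and ENSORLG00000026915). Lymphocytes with a set B mean at or above their set A mean are called members, and the other 229 are called the rest.

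The fish were wild-type adults of both sexes of the HdrR inbred strain, and the labels give 1 group with 2 libraries, run 1 and run 2. The series' design text says that sorting by GFP and mCherry signals enriched pigment cells, so lymphocytes came through a sort that was set for other cells, and the sources used here do not give its gates. Transcript 3′ ends were counted on a droplet platform. The labels do not state whether different animals went into the 2 runs, and no group serves as a control.

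Lymphocytes of the T lineage carry the T cell receptor, whose signal passes through the CD3 chains to the kinases Lck and Zap70. The product of il2rb is the beta chain of the receptors for interleukin 2 and interleukin 15, which in mammals is abundant on natural killer (NK) cells and on memory and regulatory T cells. Mammalian NK cells carry no CD3 complex on their surface, kill with perforin and granzymes, and share the transcription factor T-bet, encoded by tbx21, with type 1 T cells.

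The members' depth was close to that of the rest. Members had a median of 2957 UMIs and 745 genes in run 1 (136 cells, 636 to 12536 UMIs, 448468 in all), against 2827 UMIs and 680 genes in the rest (216 cells, 646238 UMIs in all). In run 2 the medians were 3836 UMIs in 14 members (70509 in all) and 4016 in 13 cells of the rest (48889 in all). Mitochondrial features took a median of 3.26% and 2.73% of UMIs in members of runs 1 and 2, against 3.07% and 3.37% in the rest. No barcode was shared between the runs. Members made up 38.6% of the lymphocytes of run 1 (exact binomial 95% interval 33.5 to 43.9%) and 51.9% of those of run 2 (31.9 to 71.3%). The share is set by the rule and by the sort.

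Set B was found in a part of the members only. Of the 150, 82 had at least 1 UMI of set B and 68 had none. The number of set B genes with a UMI was 1 in 43 members, 2 in 17, 3 in 13 and 4 in 9. Among the members, 27 had no UMI of either set, and all of these stood at the same difference between the set B and set A means, 0.651, which is also the median of all members. Their depth was not low, with a median of 2758 UMIs and a range of 1033 to 5496. A lymphocyte without a UMI of any of the 8 genes is thus a member by construction. The median difference of the rest was -0.60, and differences ran from -1.91 to 4.42. Next to the cut, the 5 members just inside stood at 0.0106 to 0.0461 and the 5 cells just outside at -0.000582 to -0.0260. All 10 of these cells had set A UMIs and none had a set B UMI, so a small amount of set A parted them. Within 0.25 of the cut lay 24 members and 51 cells of the rest.

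**Figure D1:**
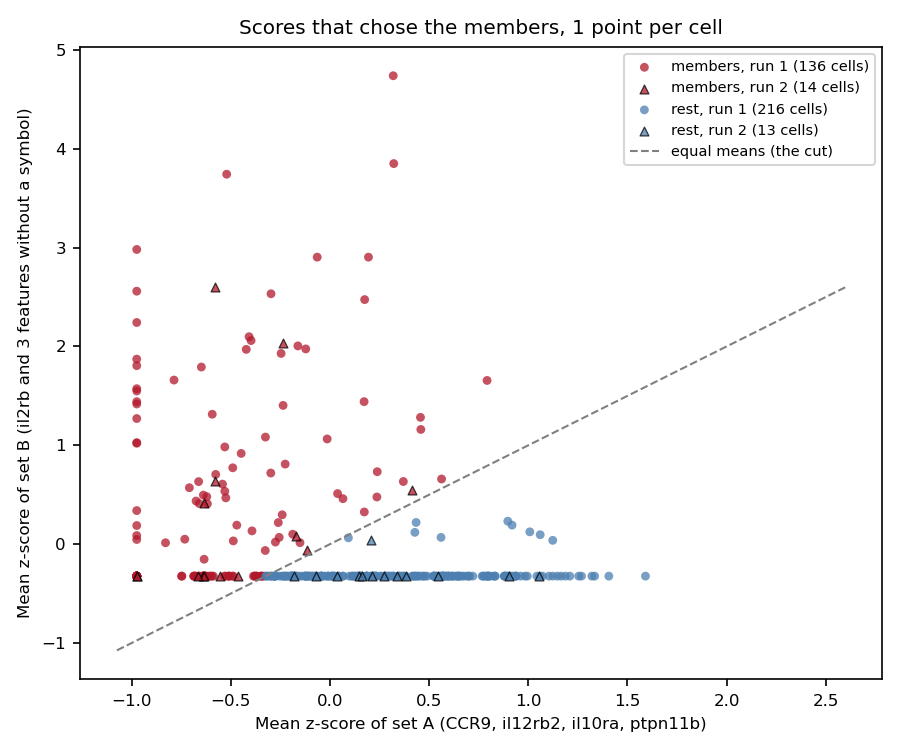
Mean z-score of set B (vertical axis) against mean z-score of set A (horizontal axis), 1 point for each of the 379 lymphocytes, by run, with the line of equal means. The 68 members without a set B UMI and 219 cells of the rest lie on the same low line of set B, and the 27 members without a UMI of either set fall on 1 spot at its left end.

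The labelled identity was checked against its markers. CD3D, a chain of the T cell receptor complex, was at 1115 CPM (UMIs per 1000000, over the UMIs summed in the cells of a run) in members of run 1 and 1038 CPM in the rest. In run 2 it was at 596 CPM in members and 1125 CPM in the rest. A CD3D UMI was found in 148 of 150 members and 224 of 229 cells of the rest. CD3D, lck and zap70 chose the lymphocytes, so their presence is no finding. As background for free RNA of the other genes stand 1208 epcam cells, which have at least 2 UMIs of the epithelial gene epcam and, by definition, no UMI of CD3D, lck and zap70. They were deeper, at medians of 8147.5 and 15068.5 UMIs in runs 1 and 2. il2rb itself was detected in 30 members, 20%, in none of the rest and in none of the epcam cells. The name of an il2rb program therefore describes the gene set of the rule and not most of the cells. The rule needs 2 UMIs of CD3D, lck and zap70 in sum, so a cell without CD3D could pass on lck and zap70. No CD3D UMI was found in 2 members and 5 cells of the rest. Whether these cells lack CD3D or missed it was not tested, and cells without UMIs of all these genes were left out.

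The set B genes chose the members, and their levels are a description with no test. il2rb was at 93.7 CPM in members of run 1 (exact Poisson 95% interval 67.5 to 127) and 56.7 CPM in members of run 2, with 0 UMIs in the rest of both runs. ENSORLG00000026946 was at 288 CPM and 113 CPM in members of runs 1 and 2, again with 0 UMIs in the rest. ENSORLG00000026915 was at 158 and 170 CPM in members, against 3.09 and 20.5 CPM in the rest. These 3 were thus high in members of both runs and at or near 0 in the rest. ENSORLG00000029584 was at 807 and 369 CPM in members, against 15.5 and 0 CPM in the rest. Of its 388 UMIs in members, 169 came from 1 cell of run 1, which held 12536 UMIs and 14 of CD3D; without that cell the members of run 1 stood at 443 CPM. Cells with a UMI numbered 57 members (38.0%) against 7 of the rest (3.06%) for ENSORLG00000029584, 39 (26.0%) against 0 for ENSORLG00000026946, and 26 (17.3%) against 3 (1.31%) for ENSORLG00000026915. In the epcam cells the shares were 0.662%, 0.248% and 0.0828%. A count of 0 in the rest allows up to about 1.31% of its cells, taken as 3 over the 229 cells. With a gene left out of its own score, the log2 ratio of CPM plus 10 in run 1 was 1.71 for il2rb, against 3.37 with it in the score. It was 3.73, against 5.004, for ENSORLG00000029584 and 2.53, against 4.90, for ENSORLG00000026946. These 3 ratios were thus smaller with a gene out of its own score. That of ENSORLG00000026915 stayed within its interval of counting error when it was left out. The other genes of the rule were chosen on the same cells, so the ratio that remains is no support for the split.

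The set B genes tended to lie in the same members. Of the 30 members with il2rb, 18 also had ENSORLG00000026946 (60%), against 21 of the 120 without il2rb (17.5%). ENSORLG00000026946 was found in 29 of the 57 members with ENSORLG00000029584 (50.9%), against 10 of the 93 without it (10.8%). il2rb and ENSORLG00000029584 were less tied, with 15 of 30 members (50%) against 42 of 120 (35%). A member that holds one of these genes could be above the cut without the others, so these shares describe how the genes fell together and nothing more. In the deposited feature list ENSORLG00000026915, ENSORLG00000029584 and ENSORLG00000026946 stand on rows 10085, 10086 and 10089, between tada2b on row 10083 and TBC1D14 on row 10091. ENSORLG00000022486, on row 10090 and no part of the rule, was at 348 and 70.9 CPM in members of runs 1 and 2, against 3.09 and 0 CPM in the rest. It was found in 39 members and 2 cells of the rest, and the cell with the most ENSORLG00000029584 held 66 of its 161 UMIs in members. The features on rows 10084, 10087 and 10088 had at most 3 UMIs in members. None of these has a name in the files. Where such neighbours are near-identical copies, their separate levels are uncertain, and how reads common to them were counted was not tested.

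Set A, which marked the other side of the rule, was lower in members by construction. CCR9, a chemokine receptor that guides T cells to the gut in mammals, was at 143 and 355 CPM in members of runs 1 and 2, against 826 and 573 CPM in the rest. The interleukin 12 receptor chain gene il12rb2 was at 109 and 113 CPM in members, against 356 and 286 CPM in the rest. il10ra, for a chain of the interleukin 10 receptor, was at 178 and 156 CPM in members, against 577 and 348 CPM in the rest. ptpn11b, for a tyrosine phosphatase, was at 78.0 and 85.1 CPM in members, against 385 and 409 CPM in the rest. Set A was not absent from members, as 107 of them had at least 1 UMI of it and 66 had UMIs of both sets.

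Over all genes, 2579 features had at least 30 UMIs over members and rest of run 1, and 11 of these were genes of the rule, the 8 score genes with CD3D, lck and zap70. On the ratio of CPM plus 10, 224 of them, 8.69% of those counted, were at least 2-fold higher in members, and 43, or 1.67%, were at least 2-fold lower. Set B made up 4 of the higher and set A 4 of the lower ones. The clusters behind the rule were built on the same cells, so this is a description and no test was made. The call needs no more than 1 cell. When the cell with the most UMIs of each gene was left out, 140 were higher and 31 lower. The split also moved with the scaling. The median log2 ratio of all counted features was 0.19, and with scaling by the median ratio, a shift of 0.22 log2, there were 149 higher and 67 lower, so that the higher ones were 69.0% of the calls, against 83.9% with scaling by the total. Of the 138 higher features with at least 3 UMIs in run 2, 103 were also higher there, and of 30 such lower ones, 20 were lower. The 4 set B and 4 set A genes are in these counts, and the rule pushes them to the same side in both runs. The share of all counted features on the same side in both runs was not worked out. No agreement between runs beyond the rule can thus be read. The genes below come from the naming rule and the fixed lists unless they are said to have been picked after their values were seen.

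Among ligands and receptors, 3 named genes had UMIs in members and none in the rest. tnfsf14, for the costimulatory ligand LIGHT of the tumour necrosis factor family, was at 143 CPM in members of run 1 (110 to 182) and 99.3 CPM in members of run 2, with 0 UMIs in the rest of either run. That is at least 30.7-fold higher in run 1, counted against a floor of 3 UMIs in the summed rest. It was found in 38 members, 25.3%, and in 0.248% of epcam cells. m17, for a cytokine of the interleukin 6 family known from fish, was at 129 and 284 CPM in members of runs 1 and 2 with 0 UMIs in the rest, at least 27.9-fold higher in run 1, in 26 members and 0.414% of epcam cells. All of its UMIs in members of run 2 lay in 1 cell. nitr17 encodes one of the immune-type receptors of bony fish, a family with activating and inhibitory members. It was at 114 and 14.2 CPM in members with 0 UMIs in the rest, at least 24.5-fold higher in run 1, in 18 members and 0.0828% of epcam cells. With il2rb left out of the score its log2 ratio of CPM plus 10 in run 1 was 2.55, against 3.63 with it. The other nitr genes, looked up after nitr17 was seen, were lower or near 0. nitr20 had 21 UMIs in 9 members and nitr2 had 10 UMIs in 10, with 0 in the rest, while nitr9, nitr14 and nitr22 had 1 UMI each. The log2 ratio of nitr20 was 0.83 with il2rb left out of the score, against 2.51 with it. Thinned to 1000 UMIs per cell, with 2 members and 3 cells of the rest too shallow to keep, the shares of members with a UMI were 11.5% for tnfsf14, 10.8% for m17 and 6.76% for nitr17, and those of the rest were 0.

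ptpn6, for the phosphatase SHP-1 that dampens receptors with tyrosine motifs, was at 190 and 156 CPM in members of runs 1 and 2, against 32.5 and 0 CPM in the rest. The ratio in run 1 was 5.83 (exact 95% interval 3.58 to 9.90). It was found in 50 members (33.3%), 19 cells of the rest (8.30%) and 3.06% of epcam cells. It was the only gene at least 2-fold higher among the 10 counted of 18 matched in the list of common gamma chain cytokine receptors and their signalling, where 8.69% of all features were higher. The following 6 genes form no fixed list and were picked after their values were seen. syk, for a kinase related to Zap70, had 26 UMIs in 22 members and 0 in the rest, with 22 in run 1, too few to be counted, which is 49.1 and 56.7 CPM in members of runs 1 and 2, and 1.49% of epcam cells held it. plcg2, for the phospholipase that acts after Syk in mammals, was at 93.7 and 113 CPM in members, against 17.02 and 20.5 CPM in the rest, a ratio of 5.50 in run 1 (2.78 to 11.8). The tyrosine kinase genes fes and MATK were at 64.7 and 80.3 CPM in members of run 1, against 7.74 and 17.02 CPM in the rest. rasgrp4, for a Ras activator, was at 60.2 and 56.7 CPM in members of runs 1 and 2, against 7.74 and 20.5 CPM in the rest. ncf1, for a subunit of the phagocyte oxidase and on the list of neutrophil genes, was at 73.6 and 128 CPM in members, against 7.74 and 0 CPM in the rest, in 30 and 5 cells. In run 2, fes was at 99.3 CPM in members, against 20.5 CPM in the rest, and MATK had 1 UMI in members, against 0. Run 2 gave 1 to 9 UMIs of each of the 6 in members and at most 1 in the rest, too few to read a direction there gene by gene.

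Genes of the T cell receptor pathway itself gave 1 call in each direction. Of 10 matched genes 8 were counted, with CD3D of the rule among them, 1 was at least 2-fold higher, RASGRP1, and 1 at least 2-fold lower, prkcq, beside 8.69% higher and 1.67% lower of all features. The median log2 ratio was -0.33, or -0.37 without CD3D, against 0.19 over all features. Neither gene was past 2-fold with il2rb, or with ENSORLG00000029584, left out of the score. RASGRP1, a Ras activator, was at 95.9 CPM in members of run 1, against 38.7 CPM in the rest, but in run 2 it had 0 UMIs in members and 40.9 CPM in the rest, and with median-ratio scaling it was not past 2-fold. prkcq, for the protein kinase C theta of T cells, was at 69.1 CPM in members of run 1, against 153 CPM in the rest, and in run 2 at 70.9 CPM in members, against 20.5 CPM in the rest. The adapter gene grap2a was at 453 and 142 CPM in members of runs 1 and 2, against 559 and 327 CPM in the rest. VAV1, for a signalling protein of blood cells, was at 91.4 and 70.9 CPM in members, against 121 and 184 CPM in the rest. The intervals of both ratios in run 2 hold 1. lck was at 207 and 170 CPM in members, against 193 and 81.8 CPM in the rest. zap70 was at 116 and 42.5 CPM, against 135 and 61.4 CPM. Summed, the 10 matched genes were at 2129 and 993 CPM in members, against 2326 and 2086 CPM in the rest.

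**Figure D2:**
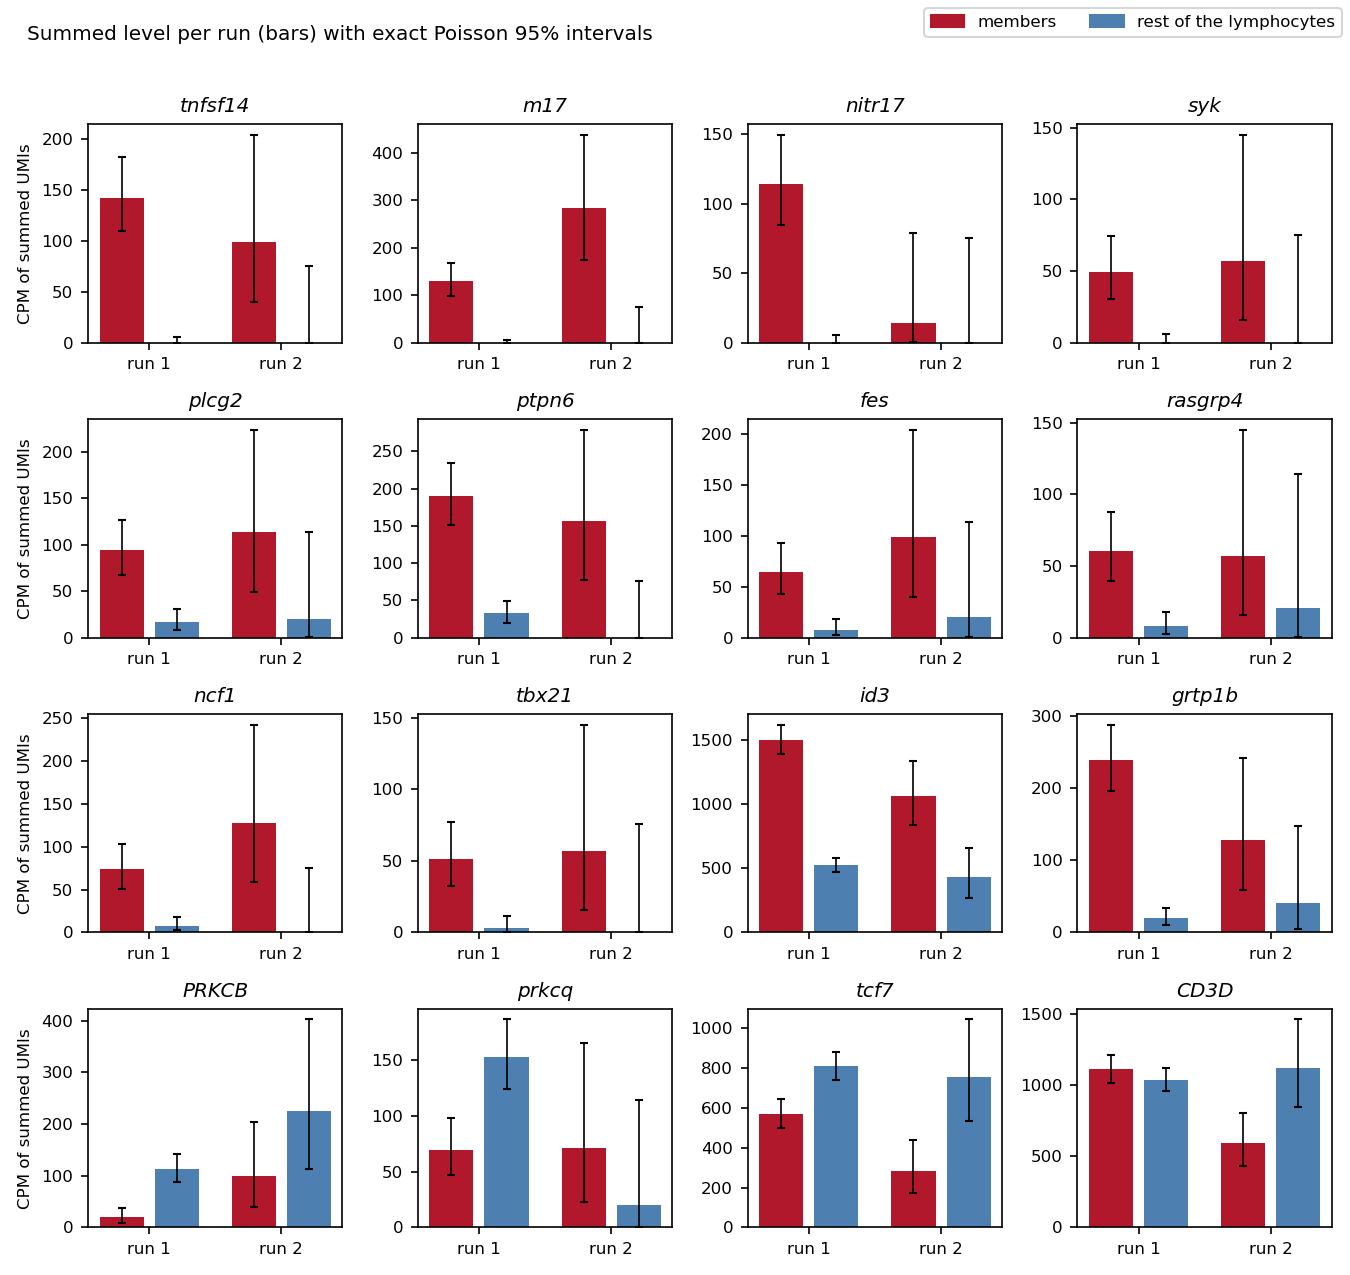
Level of 16 genes (CPM of UMIs summed over cells, vertical axis) in members and in the rest of the lymphocytes, by run, with exact Poisson 95% intervals that cover counting error only. tnfsf14, m17, nitr17 and syk have no bar in the rest of either run, id3 is higher in members of both runs, and prkcq stands the opposite way round in the 2 runs.

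Among transcription factors all calls in run 1 were on the higher side. Of 46 matched factors 20 were counted, 6 were at least 2-fold higher and 0 lower, beside 8.69% higher and 1.67% lower of all features. Their median log2 ratio was 0.68, against 0.19 over all features, and 3 of the 6 of them, IKZF2, id3 and tox2, were also past 2-fold with median-ratio scaling. When members needed a set B UMI, 4 were higher, namely IKZF2, id3, irf4a and roraa, and 1, zbtb7b, was lower. Of these, roraa was not among the 6, and tox2, zbtb16a and rorcb were no longer called higher. Summed, the 46 factors were at 5224 CPM in members of run 1, against 3355 CPM in the rest. In run 2 they were at 2865 CPM in members, against 3130 CPM in the rest. Run 2 alone had 3 counted, with id3 higher and tcf7 lower. id3, for an inhibitor of E proteins that shapes lymphocyte fate, was at 1503 and 1064 CPM in members of runs 1 and 2, against 525 and 430 CPM in the rest, a ratio of 2.86 in run 1 (2.51 to 3.27). Its UMIs were in 120 of 150 members and 130 of 229 cells of the rest, but also in 54.6% of the deeper epcam cells. Thinned, the shares were 60.1% of members, 33.6% of the rest and 20.02% of epcam cells. IKZF2, for the zinc finger protein Helios, was at 169 CPM in members of run 1, against 46.4 CPM in the rest, while in run 2 it was at 70.9 CPM in members, against 123 CPM in the rest. tox2 was at 161 CPM in members of run 1, against 61.9 CPM in the rest, with 34 of its 73 UMIs in members from 3 cells, and its log2 ratio was 0.48 with cells weighted equally, against 1.25 for summed UMIs. irf4a, a factor of activated lymphocytes, was at 190 and 113 CPM in members of runs 1 and 2, against 78.9 and 61.4 CPM in the rest. In run 1 it was under 2-fold with median-ratio scaling and with il2rb left out of the score. zbtb16a and rorcb, the other 2 of the 6, are described with the subsets below.

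tbx21, picked after its values were seen, fell short of the 30 UMIs. It was at 51.3 and 56.7 CPM in members of runs 1 and 2, against 3.09 and 0 CPM in the rest, with 27 UMIs in 19 members and 2 UMIs in 2 cells of the rest. The ratio in run 1 was 16.6 with a wide interval of 4.09 to 145. Epcam cells held it in 3.48%, and after thinning the shares were 5.41% of members, 0 of the rest and 0.0870% of epcam cells. Other abundant factors differed by less than 2-fold in run 1. runx3, a factor of cytotoxic lymphocytes in mammals, was at 858 CPM in members of run 1 and 551 CPM in the rest, but at 454 and 532 CPM in members and rest of run 2. ets1 likewise was at 468 and 265 CPM in members and rest of run 1 and at 184 and 225 CPM in those of run 2, and was past 2-fold higher in run 1 with cells weighted equally. tcf7, for a factor of naive and memory T cells, was lower in members of both runs, at 569 and 284 CPM, against 809 and 757 CPM in the rest, a ratio of 0.703 in run 1 (0.603 to 0.818), and in run 2 it was past 2-fold lower, with 2.67-fold less in members (1.51 to 4.85).

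Genes of cytotoxic granules were low in members and rest alike. Of 16 matched features 2 had enough UMIs to be counted, and neither was past 2-fold. GZMM, for a granzyme, and prf1.5, for a perforin, had 0 UMIs in members and in the rest, which allows up to about 2% of members and 1.31% of the rest to hold a UMI. The granule list summed to 198 and 113 CPM in members of runs 1 and 2, against 141 and 81.8 CPM in the rest. stxbp2, for a protein of granule exocytosis, was at 64.7 CPM in members of run 1 and 54.2 CPM in the rest. ctsc, for the protease that activates granzymes, was at 44.6 CPM in members, against 23.2 CPM in the rest, a ratio whose interval of 0.935 to 4.03 holds 1. CST7 was at 31.2 and 18.6 CPM and rab27a at 29.0 and 21.7 CPM in members and rest of run 1. Genes of granzymes or perforins that carry no symbol in these files are not in these counts.

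Cytokine, homing and costimulation genes gave 3 calls, all higher. Of 13 matched cytokine and receptor genes 2 were counted and neither was past 2-fold. tnfa, for tumour necrosis factor, had 24 UMIs in 7 members, all in run 1, and 14 UMIs in 1 cell of the rest, in run 2. The tumour necrosis factor receptor gene tnfrsf1a was at 120 CPM in members of run 1 and 65.0 CPM in the rest, and was past 2-fold only with cells weighted equally among the alternatives run. Of 21 homing genes 2 were counted and 1 was higher. cxcr4a, for the receptor of CXCL12, was at 120 CPM in members of run 1, against 43.3 CPM in the rest, and ccr7, which guides T cells to lymphoid tissue in mammals, at 120 CPM, against 227 CPM, which was past 2-fold lower with median-ratio scaling and with ENSORLG00000026915 left out of the score. CCR8 had 14 UMIs in 9 members and 6 UMIs in 6 cells of the rest, and no UMI in epcam cells. Of 10 matched checkpoint and costimulation genes 6 were counted and 2 were higher, where 8.69% of all features were, tnfsf14 above and ptpn22, for a phosphatase that restrains T cell receptor signalling. ptpn22 was at 283 and 227 CPM in members of runs 1 and 2, against 94.4 and 123 CPM in the rest, a ratio of 3 in run 1 (2.19 to 4.14). The ectonucleotidase gene nt5e and the diacylglycerol kinase gene dgkaa differed little, at 290 and 308 CPM in members of run 1, against 269 and 361 CPM in the rest. jak1, a kinase gene of the gamma chain receptors, was at 437 CPM in members of run 1 and 282 CPM in the rest.

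Other genes named by the rule of size were grtp1b and ERBB4. grtp1b, for a protein of a family that acts on Rab GTPases, was at 239 and 128 CPM in members of runs 1 and 2, against 20.1 and 40.9 CPM in the rest, a ratio of 11.9 in run 1 (6.65 to 23.0). It was found in 55 members (36.7%), 8 cells of the rest (3.49%) and 2.07% of epcam cells, and no member held more than 7 of its 116 UMIs. ERBB4, for a receptor tyrosine kinase, was at 225 and 170 CPM in members, against 26.3 and 61.4 CPM in the rest, a ratio of 8.56 (5.09 to 15.3). It stands next to IKZF2 in the feature list. ERBB4 was found in 45 members and IKZF2 in 46, with 19 members holding both, and whether reads were shared between these neighbours was not tested.

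Proliferation genes were higher in members of run 1 in sum but rested on few cells. Of 27 matched genes 5 were counted, and 3 of them, RRM2, pcna and stmn1a, were at least 2-fold higher, where 8.69% of all features were. pcna, for the sliding clamp of DNA replication, was at 384 CPM in members of run 1, against 121 CPM in the rest, and in run 2 at 0 UMIs in members, against 81.8 CPM in the rest. Of its 172 UMIs in members, 97 came from 3 cells. RRM2 had 33 of 50 UMIs, and stmn1a 35 of 36, in 3 cells each. Members with UMIs of at least 3 of 6 cycle genes numbered 9, or 6%, against 6 cells, or 2.62%, of the rest. At these counts no difference in the share of dividing cells can be read.

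Of the 28 matched immediate early and heat shock genes, which respond to dissociation as well as to signals in the tissue, 23 were counted, 2 were higher and 1 lower, which is close to the 8.69% and 1.67% of all features. egr1 was at 350 and 737 CPM in members of runs 1 and 2, against 68.1 and 266 CPM in the rest, in only 20 members, 3 of which held 134 of 209 UMIs, and its log2 ratio in run 1 was 0.89 with il2rb left out of the score, against 2.21 with it. TNFAIP3, an inhibitor of NF-kappa-B signalling, was at 82.5 CPM in members of run 1 and 34.04 CPM in the rest, and was under 2-fold with median-ratio scaling. jun was at 297 and 28.4 CPM in members of runs 1 and 2, against 628 and 286 CPM in the rest, and was not past 2-fold in run 1 with cells weighted equally or without the cells high in ENSORLG00000028943, a feature described below. The chaperone gene hsp90aa1.2 was lower by less than 2-fold, at 3249 and 5574 CPM in members of runs 1 and 2, against 5442 and 6627 CPM in the rest.

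Among the genes lower in members of run 1, 2 were signalling genes, both with few UMIs in run 2. PRKCB, for protein kinase C beta, was at 20.1 and 99.3 CPM in members of runs 1 and 2, against 113 and 225 CPM in the rest, 5.63-fold lower in run 1 (2.81 to 12.8). ifngr1l, for a receptor of the interferon gamma type, was at 22.3 and 42.5 CPM in members, against 118 and 81.8 CPM in the rest, 5.27-fold lower (2.72 to 11.4). It was found in 13 members (8.67%) and 66 cells of the rest (28.8%), beside 28.9% of the deeper epcam cells. In run 2, PRKCB had 7 UMIs in members, all in 1 cell, and 11 in the rest, and ifngr1l had 3 and 4. The intervals of the rest over members in run 2 were 0.802 to 6.90 and 0.325 to 13.1. Both hold 1, so no direction can be read there. NFIX, a transcription factor gene, was at 33.4 and 14.2 CPM in members, against 111 and 81.8 CPM in the rest. The other lower genes of the naming rule were viml, fxyd6, hs6st1b, tmem130, lgmn and gch2. In run 2, fxyd6 was on the other side, with 1 UMI in members and 0 in the rest. Of these genes, gch2, a pteridine synthesis gene of xanthophores, had 2 UMIs in members and 35 in the rest, of which 1 cell of the rest held 18. lgmn, a lysosomal protease gene of macrophages, had 3 UMIs in members and 40 in 34 cells of the rest, and 77.1% of epcam cells held it. Of the features without a symbol, ENSORLG00000018598 and ENSORLG00000004488 were lower, at 8.92 and 11.1 CPM in members of run 1, against 189 and 94.4 CPM in the rest; for ENSORLG00000018598, 76 of 122 UMIs of the rest were in 1 cell.

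Markers of other cell types were unequal between members and rest in several lists, keratinocyte genes by the most UMIs. Beside the counts of calls given here for each list, 8.69% of all features counted were higher and 1.67% lower. The 21 matched keratinocyte genes summed to 2480 and 85.1 CPM in members of runs 1 and 2, against 316 and 205 CPM in the rest, with 10 of the 21 at 0 in members of run 1. Of the 6 counted, 4 were higher in members, krt5, krt8, krt94 and anxa1a. This came from few cells. Of the 789 UMIs of krt5, krt94 and CRABP1 in members, 735 lay in 3 cells, 116 members had none, and 4 members and 1 cell of the rest held at least 10. Those 4 members had a median of 8286.5 UMIs, and 2 of them had set B UMIs. krt94, CRABP1, s100a10b, EMP1, krt8 and PMP22 were named by the rule of size, and ENSORLG00000029444 led the features without a symbol. In each, 3 cells held most UMIs of the members, 342 of 357 for krt94, 148 of 152 for EMP1 and 136 of 137 for ENSORLG00000029444. EMP1 was on the other side in run 2, with 1 UMI in members and 2 in the rest. Without the 5 cells the log2 ratios of s100a10b, EMP1, krt8 and PMP22 were -0.14, -1.20, -0.0887 and -0.64, and 191 features were higher and 51 lower. The 18 genes of the leukocyte core list summed to 4721 and 3773 CPM in members, against 4133 and 3559 CPM in the rest, with 0 of 13 counted genes past 2-fold. The 12 matched genes of the neutrophil and mast cell list summed to 397 and 184 CPM in members of runs 1 and 2, against 68.1 and 20.5 CPM in the rest, with 5 of the 12 at 0 in members of run 1. Both counted genes of that list, ncf1 and s100a10b, were higher, with a median log2 ratio of 2.69, and without the 5 cells ncf1 alone was still counted, at 2.29. B cell genes summed to 114 and 99.3 CPM in members of runs 1 and 2, against 24.8 and 0 CPM in the rest. Of the 7 matched, 3 were at 0 in members of run 1 and 1 was counted, cd81a, at 51.3 CPM in members, against 18.6 CPM in the rest; syk is on this list. Macrophage genes summed to 285 CPM in members of run 1, against 418 CPM in the rest, and in run 2 to 780 CPM in members, against 286 CPM in the rest, with 39 of the members' 55 UMIs in 1 cell. Xanthophore genes summed to 33.4 CPM in members of run 1, against 175 CPM in the rest, where 1 cell held 33 of 113 UMIs, fibroblast genes to 95.9, against 144 CPM, and thrombocyte and erythrocyte genes to 60.2, against 4.64 CPM, with 22 of 27 UMIs in 1 member. Of the leucophore or iridophore and the melanophore lists, no gene had enough UMIs to be counted. Without the 5 cells left out above, rorcb and stmn1a were no longer called higher, and cd81a had too few UMIs to be counted. IKZF2, id3, irf4a, tox2, zbtb16a, RRM2 and pcna were still called higher. The part of these cells or their free RNA in the other differences was not tested beyond the values given.

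The members were not uniform, and 3 subsets, drawn after the data were seen, account for all 150. ENSORLG00000028943, a feature without a symbol that was picked after its values were seen, split them. It was at 6868 and 9573 CPM in members of runs 1 and 2, against 1136 and 20.5 CPM in the rest, and was found in 53 members (35.3%), 18 cells of the rest (7.86%) and 0.828% of epcam cells. At least 10 UMIs of it were held by 44 members and 10 cells of the rest. The subsets are 82 members with set B UMIs, of which 14 held at least 10 UMIs of ENSORLG00000028943, then 30 members without set B UMIs but with at least 10 of that feature, and 38 with neither. Of the 27 members without a UMI of either set, 18 held at least 10.

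The 30 members high in ENSORLG00000028943 are set beside the 82 with set B on a few genes. These genes were picked after the data were seen. No count over all features was made for these subsets, so the values are a description only. In run 1, lck was at 38.2 CPM in the subset of 30, against 286 CPM in the subset of 82, and over both runs 6 of 30 and 48 of 82 cells held it. The 30 held 3 UMIs of lck in run 1 (27 cells) and 6 over both runs, which add 3 cells of run 2. The 82 held 73 in run 1 (75 cells) and 81 over both runs, which add 7 cells. The lower level of lck thus came from run 1 alone, and lck is a gene of the rule. CD3D was level in run 1, at 1159 CPM in the 30 and 1089 CPM in the 82. zbtb16a, for the factor PLZF of innate-like lymphocytes in mammals, was at 280 CPM in the 30, against 19.6 CPM in the 82, and rorcb, for a nuclear receptor of the ROR gamma type, at 153 CPM, against 35.2 CPM. ENSORLG00000025539, also picked after its values were seen, was at 433 CPM in the 30, against 11.7 CPM in the 82. It was found in 9 and 3 cells of these subsets, in 13 members in all, in none of the rest and in 0.662% of epcam cells. zbtb16a was found in 9 and rorcb in 8 of the 30 cells, and epcam cells held zbtb16a in 20.03% and rorcb in 45.9%. With the cells high in ENSORLG00000028943 left out, the log2 ratio of zbtb16a between members and rest was -0.31.

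m17 was at 215 CPM in the 82 cells with set B and had 0 UMIs in the 30, which allows up to about 10% of those. Both tnfsf14 and nitr17 were found in every subset, tnfsf14 at 153, 51.0 and 183 CPM and nitr17 at 114, 25.5 and 175 CPM in the 82, the 30 and the 38 cells in run 1. At least 1 of the 5 genes tnfsf14, m17, syk, nitr17 and tbx21 had a UMI in 48 of the 82 (58.5%), 7 of the 30 (23.3%) and 14 of the 38 (36.8%), against 2 of the 229 cells of the rest (0.873%). These genes were thus also found in members that no set B UMI had marked. ptpn6, plcg2, ncf1 and grtp1b had UMIs in at least 15.8% of each subset and in at most 8.30% of the rest. The 5 genes, and plcg2, ncf1 and grtp1b, were named or picked for their difference between members and rest. ptpn6 was taken up here as the gene of its list that was higher. The gap of all these genes to the rest is thus no support for that difference, while set B and ENSORLG00000028943 define the subsets.

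**Figure D3:**
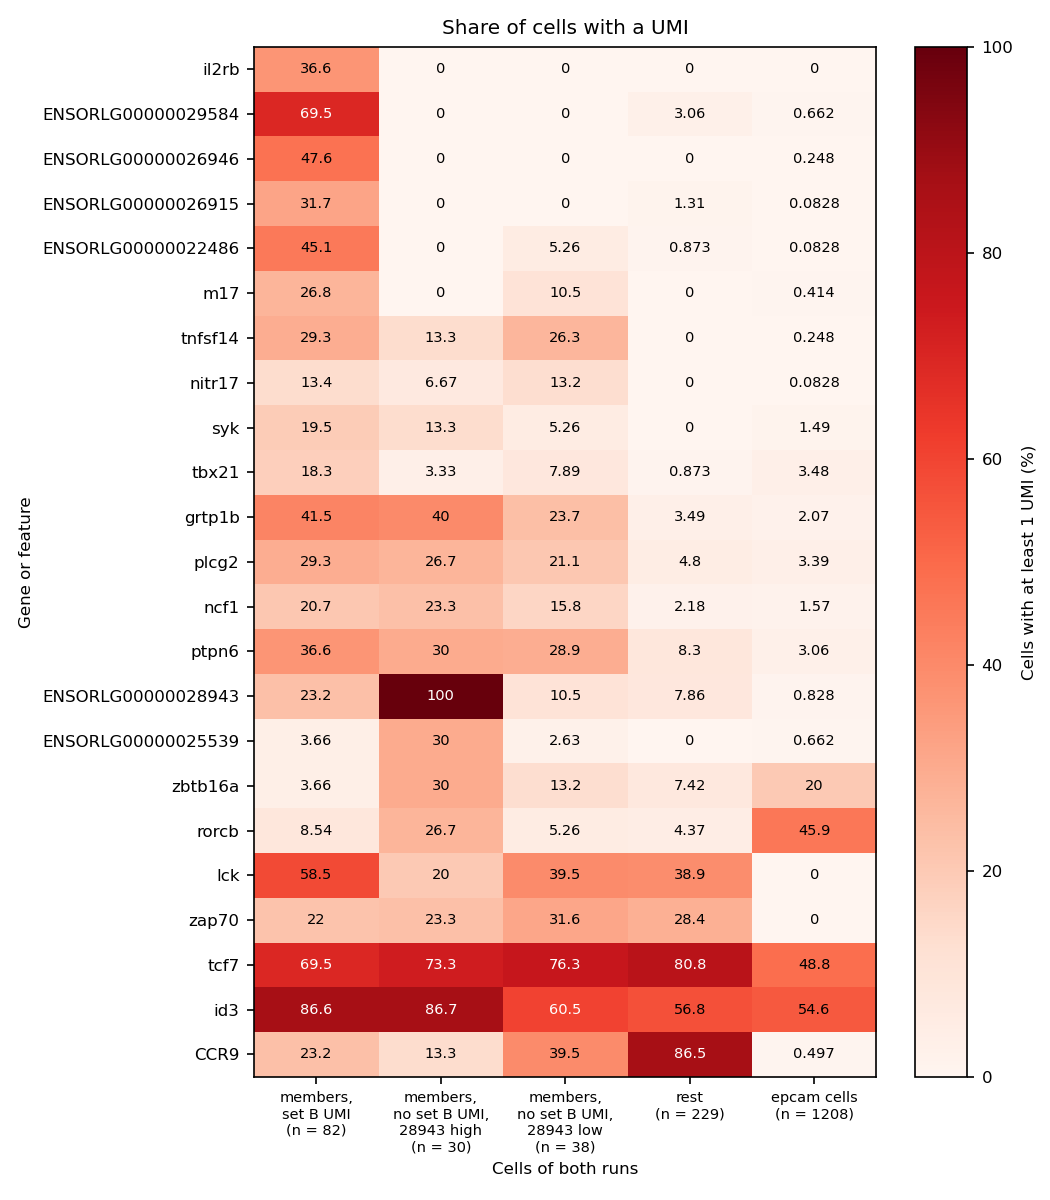
Share of cells with at least 1 UMI (colour and printed percent) of 23 genes or features (rows) in the 3 subsets of members, the rest of the lymphocytes and the epcam cells (columns), both runs together and not thinned. lck is found in 58.5% of members with set B and 20% of those high in ENSORLG00000028943, and zbtb16a in 3.66% and 30%. Epcam cells were deeper, and have no lck and zap70 by definition.

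Set B was not restricted to the members. Of 1853 set B UMIs in the series, members held 654 (35.3%) and the rest 13 (0.702%). Barcodes past the depth minimum without a UMI of CD3D, lck and zap70 held 535 (28.9%), in 56 of 4577 barcodes. Those with 1 such UMI held 333 (17.97%), in 27 of 121, and those left out by epcam, scarb1 or KIRREL3 held 305 (16.5%), in 27 of 96. Lymphocytes with at least 2 UMIs of gata3 and mpl, a class of 30 cells kept apart by the rule, held 11 UMIs in 4 cells. At least 3 set B UMIs were found in 53 members, of which 52 had CD3D, and in 19 barcodes without a UMI of CD3D, lck and zap70. Those 19, with a median of 2689 UMIs, included 12 with coro1a, a leukocyte gene, 10 with ptpn6, 9 with tnfsf14, 5 with syk and none with csf1ra, a macrophage and xanthophore gene. In the 53 members the numbers were 45 with coro1a, 21 with ptpn6, 18 with tnfsf14 and 11 with syk. Whether these barcodes lack CD3D or missed it at their depth was not tested. m17 spread further, with 346 of its 474 UMIs in barcodes without T cell UMIs.

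**Figure D4:**
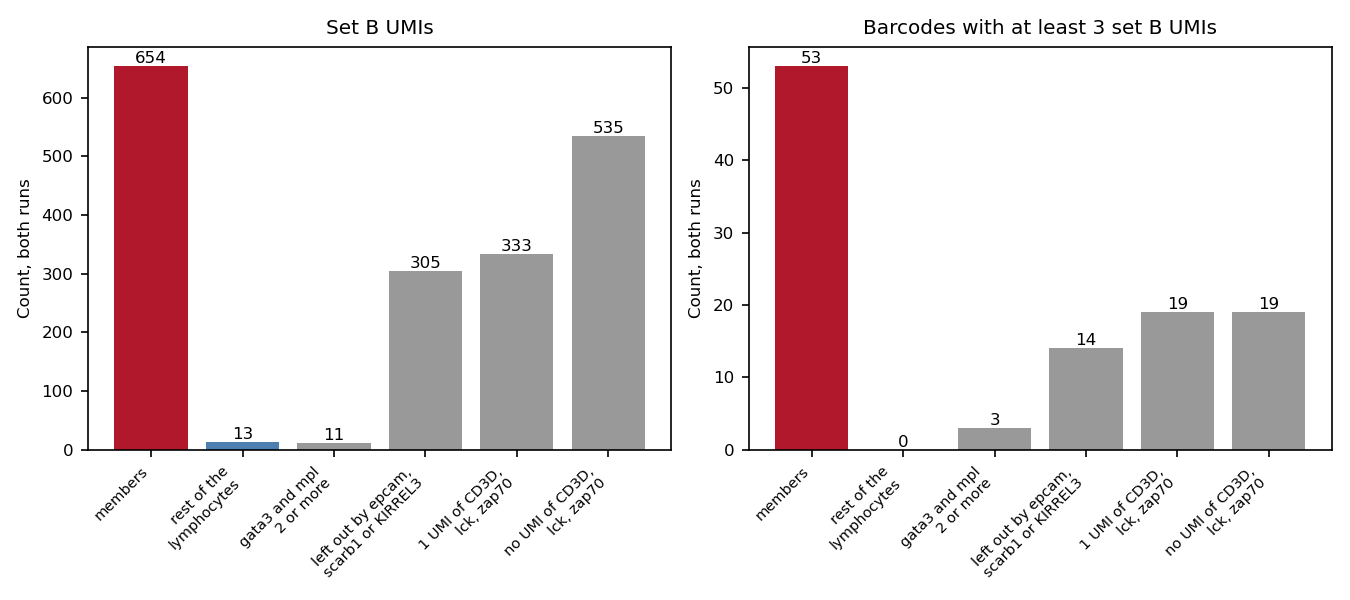
Set B UMIs (left panel) and barcodes with at least 3 of them (right panel), as counts over both runs, in members, the rest of the lymphocytes and 4 classes of barcodes outside the rule. Members hold 654 UMIs and 53 barcodes, and barcodes without a UMI of CD3D, lck and zap70 hold 535 UMIs and 19 barcodes; 2 further UMIs lie below the depth minimum and are not drawn.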

How the data were processed

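Skin and scale cells of adult medaka were sequenced in 2 libraries of transcript 3′ ends. The authors deposited a matrix of UMI counts per gene and barcode for each run, made with Cell Ranger 7.1.0, as the submitters' processing notes state and per the file headers. The genome build is not given in the sources used here, nor is its annotation. Gene names are those of the files; 0 features matched the RefSeq table by Ensembl identifier, so no sequence is shown. Run 1 held 4702 barcodes and 25236411 UMIs, and run 2 held 614 and 6946744. Of these, 4613 and 590 barcodes passed 500 UMIs and 300 genes.

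Scores used log1p counts per 10000, z-scored over the 379 lymphocytes. UMIs were summed per run over members and over the rest and scaled to CPM. Intervals are exact at 95% (Poisson for levels, conditional binomial for ratios, binomial for shares) and cover counting error between molecules only. The limits given for a count of 0 cells are not such intervals. They are 3 divided by the number of cells, which is tighter than the exact interval. Cells are not replicates, the rule used these cells, and there is 1 group, so no test was made. A gene was called on (CPM + 10) at 2-fold in run 1. Named genes were the 12 highest and 12 lowest with a symbol, outside the genes of the rule, less those that went the other way in run 2 on at least 3 UMIs in members or rest, up to 4 of each T or NK list by UMIs in members, up to 2 features without a symbol on either side, and the score genes. One gene that this rule named is not reported here. The members and the 19 gene lists (721 symbols, 331 features matched) were chosen with earlier results of these data known. Scrublet called 21 and 1 doublets automatically, under 0.5%, so its calls were not used. The calls were tested on simulated sums with known ratios, drawn with counting error only. These sums hold no variation between cells, so the simulation does not cover calls that rest on few cells. The alternatives covered cell filters, the score, scaling, UMI minimums and the added CPM. Computed with python 3.11.15, numpy 2.4.6, scipy 1.17.1, pandas 2.3.3 and scanpy 1.11.5.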

Additional observations from a re-analysis of the deposited data

How the results depend on the processing

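In run 2 alone there were 14 members, 51.9% of its lymphocytes, and 19 features higher and 20 lower, of 263 counted. The log2 ratios there were -1.55 for krt5, -0.71 for IKZF2, 1.41 for prkcq and -3.20 for pcna. In run 1 they were 3.67, 1.67, -1.04 and 1.59. None of these genes had the 30 UMIs needed to be counted in run 2. krt5 had 2 UMIs in members and 5 in the rest there, and the interval of its ratio, 0.0264 to 1.69, holds 1. The opposite signs thus rest on few UMIs, and no direction can be read in run 2. Members were scored over both runs and were not scored again for a single run. The calls reported use run 1 only, so leaving run 2 out repeats the reported setting and is no check. It holds 136 of the 150 members, with 38.6%, 224 higher and 43 lower. When members needed a set B UMI there were 82, or 25.8% of run 1, and zbtb16a stood at -0.41. Median-ratio scaling gave 149 higher and 67 lower. A minimum of 10 UMIs gave 484 and 103, and of 100 UMIs gave 57 and 18. Adding 1 CPM gave 66 lower. Added after the data were seen, a filter left out cells with at least 10 UMIs of krt5, krt94 and CRABP1 together. It gave -0.14 for s100a10b, -1.20 for EMP1, -0.0887 for krt8 and -0.64 for PMP22. Leaving out cells high in ENSORLG00000028943 gave a share of 31.8% and -0.31 for zbtb16a. Leaving out the top cell of each gene gave 140 higher. Causes were not tested. The other filters, each set B gene left out of the score and equal weighting moved no count over 1.5 times. Thinning moved 21 of 23 shares outside their intervals. No paired analysis was possible because there is 1 group and no pair of groups to compare. Counts of 0 bound a share of cells with a UMI, not of cells that express the gene.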
